A study of Homo sapiens with 12 samples.

Results

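Collagen transcripts were followed in HER2 breast cancer cell lines treated with TWEAK, a cytokine of the TNF family that acts through the receptor Fn14. The set comprised every protein-coding gene whose symbol reads COL, digits, A, digits, and 44 of the 62696 genes counted met this rule. By structure, 11 of them encode fibrillar collagens, 10 fibril-associated collagens with interrupted triple helices (FACIT), 6 basement membrane collagens, 4 transmembrane collagens and 13 other collagens. RNA-seq of polyadenylated RNA was available from 12 libraries of SKBR3 and MDA-MB-453, established human breast cancer lines, in 4 groups of 3. The protocol given for every library has the cells starved in serum-reduced medium for 8 h. TWEAK-treated cells then received 10 ng/ml TWEAK for 48 h, with fresh TWEAK added after 24 h, whereas untreated cells are labelled only as untreated. Each model is a single line grown alone, without stromal cells. The study's methods describe the RNA-seq replicates as biological and work on cell lines as repeated on different days. The labels tie no library to a culture or day, and the p-values measure the spread between these libraries.

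Collagens are triple helices of chains that each carry the name of the collagen type, for example type V collagen from COL5A1 and COL5A2 chains. Fibrillar collagens form the cable-like fibrils of connective tissue, FACIT members decorate the surface of those fibrils, and type IV chains build the sheet under epithelia and vessels. Fibroblasts make most of the interstitial collagen of a tumour, while carcinoma cells can also make collagen chains. The comparisons asked which collagen genes respond to TWEAK in each line, and whether the lines respond alike.

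The libraries held 24773003 to 35208304 counts in genes. TWEAK replicate 2 differed most from its companions. Against them its chi-square per degree of freedom over genes reached 21.1 and 23.8 for SKBR3, and for MDA-MB-453 10.2 and 5.31, where every other pair of replicates in a group gave 1.78 to 5.74. Every pair thus differed by more than sampling noise. NFKB2, RELB and BIRC3, fixed as a check of the treatment, rose in both lines. Of 7 HER2 and luminal epithelial markers, 6 exceeded 1 CPM (counts scaled to library size, with TMM factors over all 12 libraries) in SKBR3 and all 7 did so in MDA-MB-453, and the exception was CDH1 with 0.162 CPM in untreated SKBR3. Summed over 6 fibroblast markers (DCN, LUM, PDGFRA, PDGFRB, THY1, FAP), the level stayed between 0.0371 and 0.32 CPM in all libraries, and 5 of the 6 had at most 3 counts in every library of each group. Of 3 endothelial markers, PECAM1 lay below 0.1 CPM in each group mean, VWF did not pass the test with TWEAK (2.85 and 2.67 CPM in SKBR3), and CDH5, a vascular cadherin, rose in SKBR3 from 1.74 to 4.20 CPM (adjusted p = 0.000855). The 3 genes summed to 3.89 to 5.1 CPM in untreated and 6.42 to 7.72 CPM in treated SKBR3. Whether the CDH5 signal has a part in the collagen results was not tested.

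The summed collagen level was of like size in the untreated lines, and in SKBR3 it was 1.84-fold higher with TWEAK. In untreated SKBR3 the 44 genes summed to 281, 286 and 290 CPM, and in TWEAK-treated SKBR3 to 539, 503 and 533 CPM, so that the groups did not overlap. In MDA-MB-453 the sums were 274, 268 and 261 CPM without and 269, 282 and 279 CPM with TWEAK, and these groups overlapped. No test was made of these sums. The difference in SKBR3 came to 239 CPM. COL5A1, COL16A1 and COL12A1 together rose by 249 CPM, while losses elsewhere, mainly of COL5A2, offset part of it. Bulk RNA cannot tell a change in the number of cells that use a gene from a change in the RNA per cell.

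**Figure D1:**
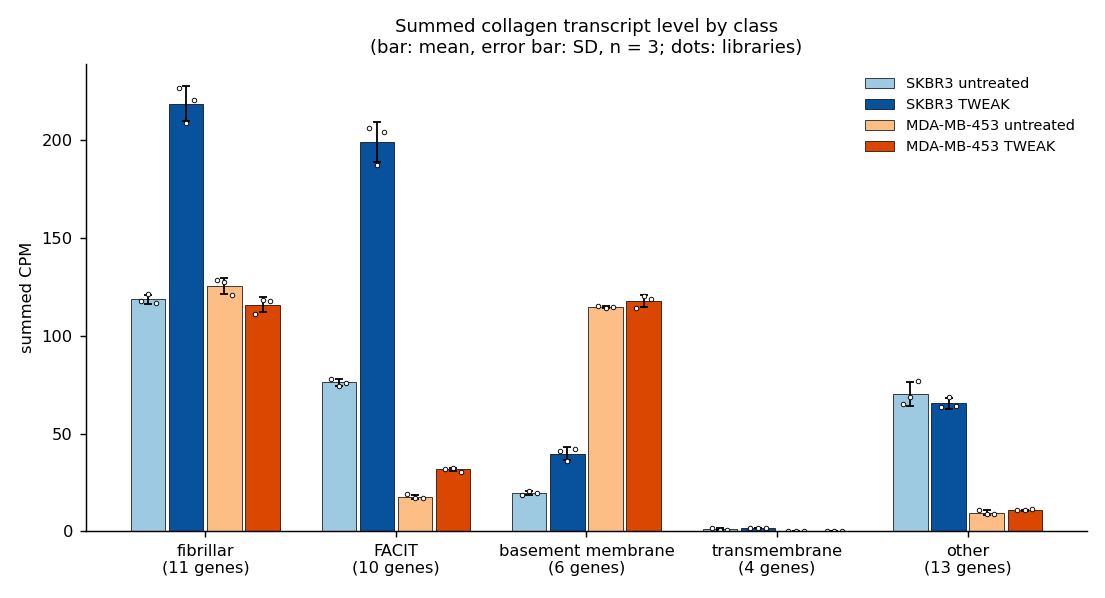
Summed CPM of the collagen genes in each structural class (vertical axis, linear) for the 4 groups; bars are means of 3 libraries, error bars SD and dots single libraries. In SKBR3 the FACIT sum went from 76.2 to 199 CPM and the fibrillar sum from 119 to 219 CPM, whereas MDA-MB-453 gave FACIT sums of 17.6 and 31.7 CPM and fibrillar sums of 126 and 116 CPM.

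With the quasi-likelihood test of edgeR, p-values adjusted by Benjamini-Hochberg over all genes tested and a threshold of 0.1, 7 collagen genes rose with TWEAK in SKBR3 and 3 fell. Over all 15661 genes tested, 6.6% rose and 3.82% fell. Of the 44 collagen genes 23 passed the filter on low counts and 21 did not, and a gene can pass this filter through its higher group alone. The tested collagen genes had a median log2 fold change of 0.32, against -0.0074 over all genes tested, and 15 of the 23 had a positive value. In 10 of the 23 every TWEAK library lay above every untreated library, and in 5 every TWEAK library lay below, as in 14.4% and 12.2% of all genes tested. COL4A1, COL4A2, COL5A1, COL12A1, COL16A1 and COL27A1 rose under every alternative setting and with any library left out. COL14A1 joined them only under some settings, and it passed the filter on low counts only through its TWEAK group. COL5A2 was the only gene that fell under each of those settings, since the count of 3 dropped to 1 without any of the 3 untreated libraries or TWEAK replicate 1, to 2 without TWEAK replicate 3, and went up to 6 without TWEAK replicate 2. The share of all genes called lower moved the same way, to between 1.49% and 2.65% in the refits with 1 collagen gene, 3.08% in that with 2 and 7.45% in that with 6.

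In MDA-MB-453, 2 collagen genes rose, COL12A1 and COL16A1, and 0 fell, where 1.29% of the 14929 genes tested rose and 0.208% fell. With an unadjusted p below 0.05, 4 of the 12 collagen genes tested were higher and 1 was lower, beside 5.95% and 4.57% of all genes, and DESeq2 also called 2 higher and 0 lower (0.872% and 0.146% of all genes). Without TWEAK replicate 2 the calls numbered 4 higher, with COL7A1 and COL9A3 added, and 1 lower, COL1A1, in a refit that called 6.59% of all genes higher and 7.22% lower. Without untreated replicate 1 there were 3 higher, with COL7A1 added, beside 1.17% of all genes. In this line 12 of the 44 genes passed the filter on low counts and 32 did not. Of the 44, 27 had at most 3 counts in every untreated library, against 15 in SKBR3. COL5A1, COL4A2, COL24A1, COL27A1 and COL28A1 had more than that in some untreated library of MDA-MB-453 and still did not pass.

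**Figure D2:**
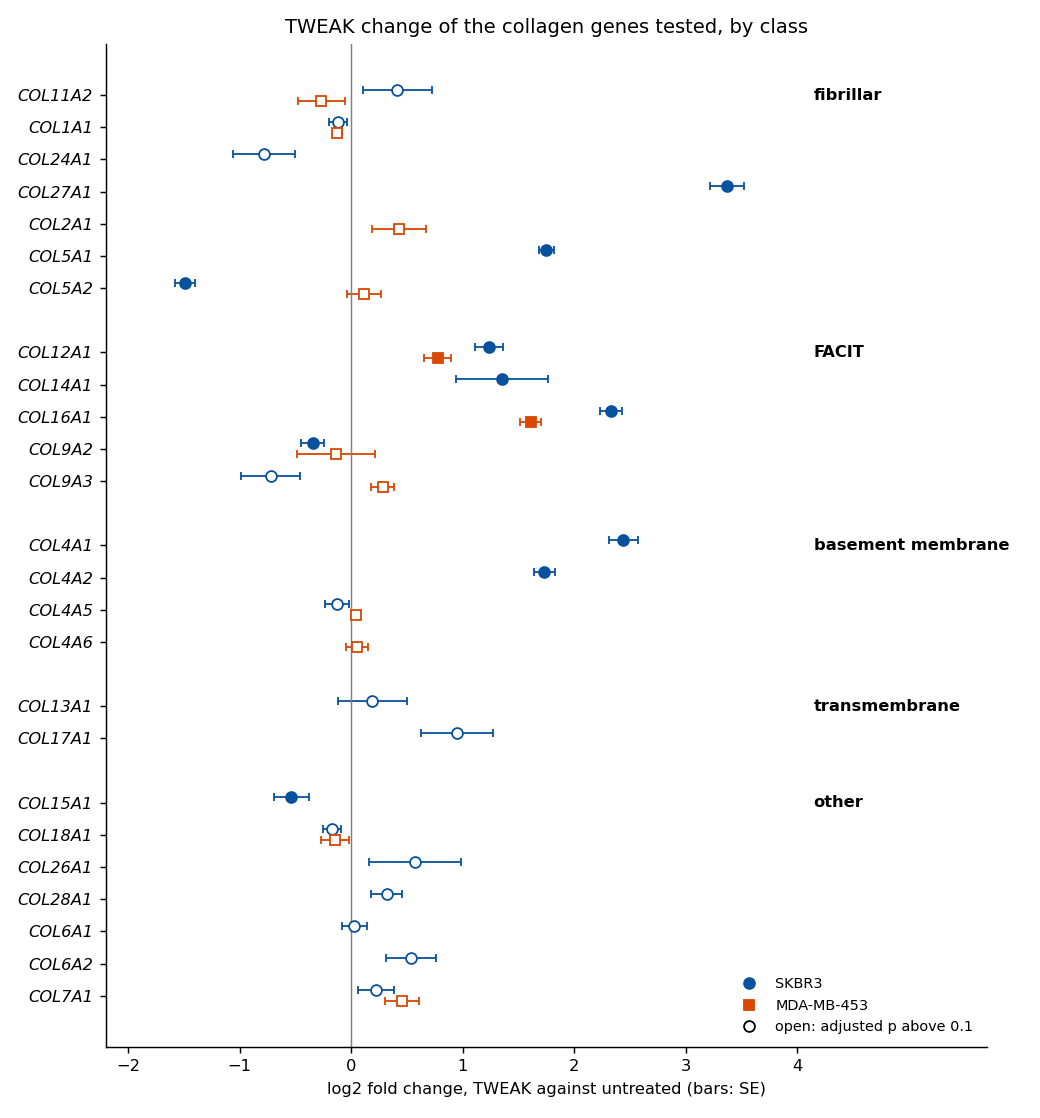
Log2 fold change of TWEAK-treated against untreated cells (horizontal axis) for the collagen genes tested in at least 1 line, ordered by class, with bars for the SE; circles are SKBR3, squares MDA-MB-453, and filled symbols have an adjusted p of at most 0.1. COL27A1 reached 3.37 and COL5A2 -1.49 in SKBR3, and only COL12A1 and COL16A1 carry filled symbols in both lines.

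Among the fibrillar collagens, the chains of type V collagen moved in opposite directions in SKBR3. COL5A1, the chain of type V collagen that is needed to start fibrils, lies at chr9:134641803-134844843 (hg38, plus strand). Its level was 52.5, 49.8 and 52.6 CPM in untreated and 183, 166 and 175 CPM in TWEAK-treated SKBR3. Every treated library lay above every untreated library, with a log2 fold change of 1.75 (SE 0.063, adjusted p = 3.81e-08), or 3.38-fold. COL5A2, its usual partner chain, lies at chr2:189031898-189225312 on the minus strand. It gave 44.8, 49.8 and 40.9 CPM without and 16.2, 14.9 and 17.4 CPM with TWEAK. This was the steepest fall of any collagen gene tested in SKBR3, at -1.49 (SE 0.092, adjusted p = 1.95e-06), or 2.8-fold lower. In MDA-MB-453 COL5A1 was at 6, 3 and 3 counts without and 3, 0 and 3 counts with TWEAK and was not tested, while COL5A2 was at 3.27, 2.44 and 2.31 against 2.65, 3.21 and 2.83 CPM, with overlapping groups and no call (log2 0.12, SE 0.155, adjusted p = 0.823).

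Per kilobase of exon, which allows genes to be compared, untreated SKBR3 held 4.63 CPM of COL5A1 and 6.17 CPM of COL5A2, and TWEAK-treated SKBR3 held 15.7 and 2.2 CPM. The ratio of the COL5A1 to the COL5A2 level was 0.769, 0.656 and 0.844 in the untreated libraries and 7.42, 7.35 and 6.61 in the treated libraries. On this scale COL5A2 lay above COL5A1 in every untreated library and below it in every treated library. The order before treatment depended on the length used, since with the longest transcript in place of all exons the ratio was 0.948, 0.81 and 1.04 in the untreated libraries. With that length the treated libraries still gave 9.16, 9.06 and 8.15.

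**Figure D3:**
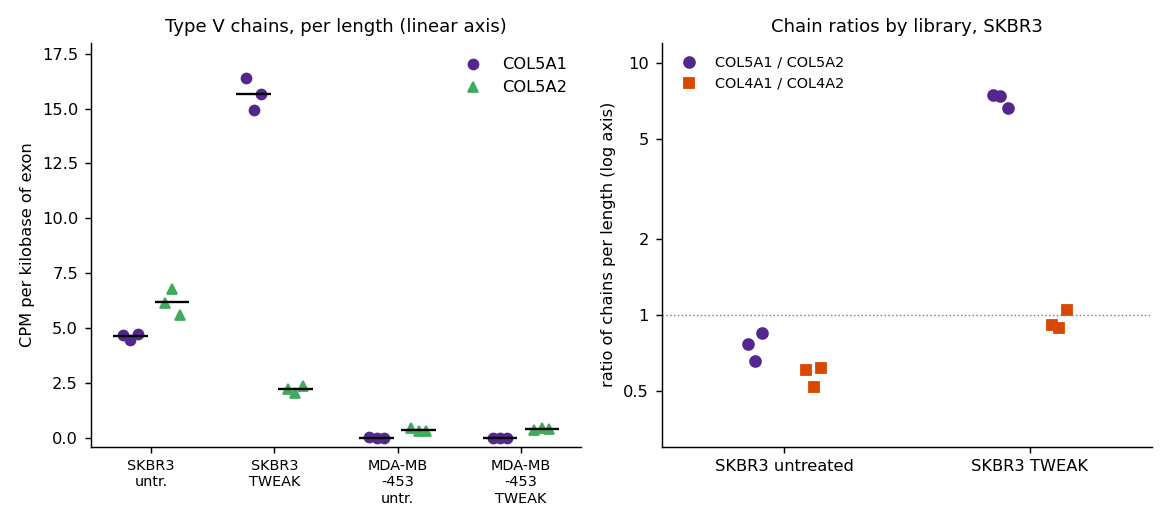
Left, level per kilobase of exon of COL5A1 and COL5A2 by library in the 4 groups (linear axis, lines are means of 3). Right, ratio per length of COL5A1 to COL5A2 and of COL4A1 to COL4A2 in each SKBR3 library (log axis); the type V ratio went from 0.656-0.844 to 6.61-7.42, and the type IV ratio from 0.519-0.614 to 0.886-1.05.

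COL27A1, a fibrillar collagen known from cartilage, had the highest fold change of the collagen genes tested in SKBR3. The gene spans chr9:114155537-114312511 on the plus strand. It rose from 0.862, 0.827 and 0.618 CPM to 7.56, 8.17 and 8.51 CPM, a log2 fold change of 3.37 (SE 0.157, adjusted p = 2.61e-07) or 10.5-fold. Its counts in MDA-MB-453 were 10, 7 and 0 in untreated and 9, 10 and 12 in treated libraries, too few to be tested there.

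COL1A1, the main chain of type I collagen, did not pass the test in either line. It was the most abundant collagen per length in MDA-MB-453, at 122, 123 and 116 CPM without and 106, 112 and 113 CPM with TWEAK. Those groups did not overlap, yet the difference was small (log2 -0.12, SE 0.04) and missed the threshold (adjusted p = 0.272). In SKBR3 the gene was at 17.8, 19.2 and 20.6 CPM and at 18.2, 16.9 and 18 CPM (adjusted p = 0.465). Its partner chain COL1A2 was almost silent. MDA-MB-453 gave 1, 3 and 0 counts of COL1A2 without and 4, 3 and 3 counts with TWEAK, beside 3285, 3364 and 3165 counts of COL1A1 in the untreated libraries. In SKBR3 COL1A2 went from 2, 1 and 3 counts to 10, 8 and 12 counts and was left out by the filter. Its treated level was 3.45-fold the floor of 3 counts per library. As the untreated libraries held counts, that value is not a strict lower bound on the change. DESeq2 and the edgeR fit without a filter called COL1A2 higher with TWEAK in SKBR3. COL3A1, the type III chain, had at most 2 counts in each of the 12 libraries. Of the remaining fibrillar genes COL11A2 and COL24A1 were tested in SKBR3 and COL2A1 and COL11A2 in MDA-MB-453, with no call, and COL5A3 and COL11A1 had at most 1 count in any library. COL24A1 was close to a call in SKBR3, at 0.826, 0.869 and 0.824 CPM against 0.364, 0.641 and 0.459 CPM (log2 -0.78, adjusted p = 0.138).

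**Figure D4:**
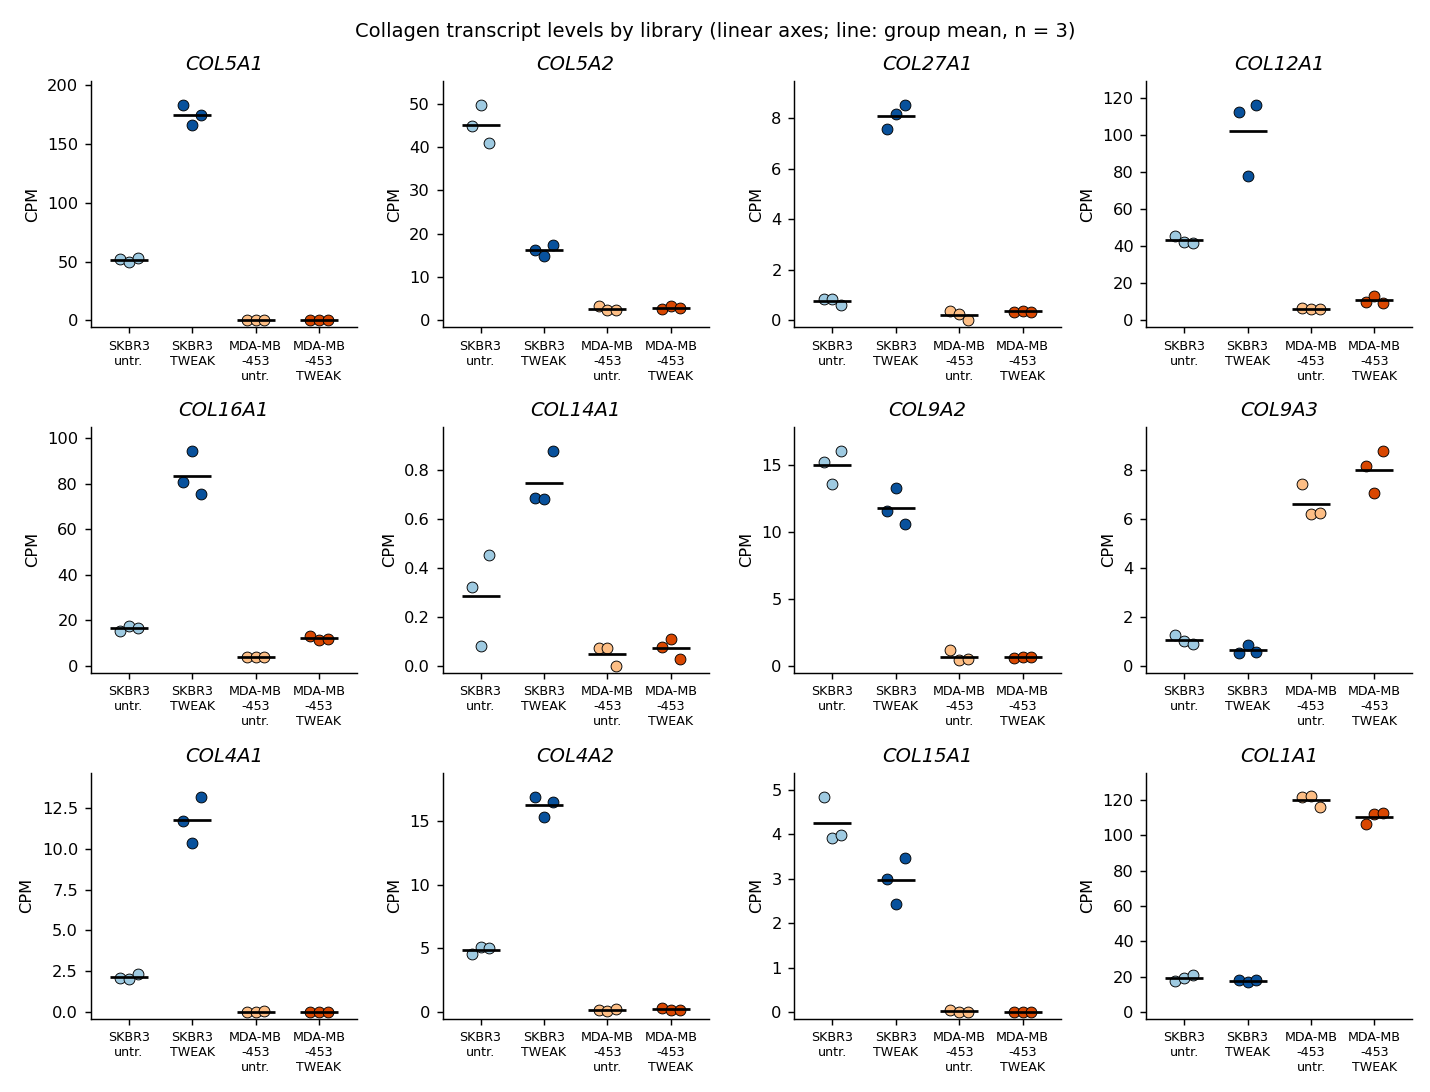
CPM of 12 collagen genes in each of the 12 libraries (dots, 3 per group, each panel with its own linear axis from 0; lines are group means). COL16A1 and COL12A1 were called higher with TWEAK in both lines, COL5A1, COL27A1, COL4A1 and COL4A2 were called in SKBR3 and too low to be tested in MDA-MB-453, and COL1A1 was at 17.7 to 19.2 CPM in SKBR3 means against 110 to 120 CPM in MDA-MB-453 means.

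The FACIT collagens held the genes that rose in both lines. COL16A1, whose product associates with fibrils and with cell-matrix contacts, lies at chr1:31652263-31704319 on the minus strand. In SKBR3 it stood at 15.4, 17.5 and 16.8 CPM without and 80.5, 94.4 and 75.6 CPM with TWEAK. In MDA-MB-453 it stood at 3.79, 4.08 and 4.07 CPM without and 13.2, 11.6 and 11.8 CPM with TWEAK. The treated libraries lay above the untreated ones in both lines, by 2.33 on the log2 scale in SKBR3 (SE 0.098, adjusted p = 1.3e-07, 5.04-fold) and by 1.61 in MDA-MB-453 (SE 0.09, adjusted p = 1.33e-07, 3.06-fold). COL12A1, a fibril-bound collagen of dense and stressed connective tissue, lies at chr6:75084326-75206267 on the minus strand. Its SKBR3 levels were 45.8, 42.1 and 41.8 CPM and 113, 78 and 117 CPM, with TWEAK replicate 2 the lowest of the treated libraries. Its MDA-MB-453 levels were 6.42, 6.19 and 5.98 CPM and 9.92, 13 and 9.27 CPM, with TWEAK replicate 2 the highest. The log2 fold change was 1.24 (SE 0.129, adjusted p = 0.00011) in SKBR3 and 0.78 (SE 0.12, adjusted p = 0.00292) in MDA-MB-453.

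The other FACIT calls in SKBR3 were smaller or rested on few counts. COL14A1, which binds fibril surfaces, had 9, 2 and 11 counts in untreated and 17, 17 and 21 counts in treated SKBR3, and its call (log2 1.35, SE 0.41, adjusted p = 0.0795) was lost in DESeq2 (adjusted p = 0.182) and without untreated replicate 1 (0.199), untreated replicate 2 (0.238), TWEAK replicate 1 (0.133) or TWEAK replicate 3 (0.18). COL9A2, a chain of the cartilage collagen IX, fell from 15.2, 13.6 and 16 CPM to 11.6, 13.3 and 10.6 CPM (log2 -0.34, SE 0.106, adjusted p = 0.0851). That call was lost in DESeq2 (adjusted p = 0.113) and without any library other than TWEAK replicate 2 (0.106 to 0.263). COL9A3, the partner chain, did not pass in SKBR3 although its groups did not overlap, at 1.26, 1.03 and 0.907 CPM against 0.525, 0.841 and 0.584 CPM (log2 -0.72, adjusted p = 0.156). It did pass there without TWEAK replicate 2 (adjusted p = 0.0518), in a fit of all 12 libraries (0.0992) and with GC content and length offsets (0.0765). In MDA-MB-453 COL9A3 was at 7.43, 6.23 and 6.24 CPM and at 8.19, 7.08 and 8.8 CPM, which overlapped (log2 0.29, adjusted p = 0.334, and 0.0206 without TWEAK replicate 2). COL9A1 and the remaining 4 FACIT genes (COL19A1, COL20A1, COL21A1, COL22A1) had at most 2 counts in any library.

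Of the basement membrane collagens the head-to-head pair COL4A1 and COL4A2 rose together in SKBR3. These chains form the common type IV network of basement membranes. COL4A1 lies at chr13:110148963-110307157 on the minus strand and COL4A2 at chr13:110305812-110513209 on the plus strand. COL4A1 rose from 2.08, 2.03 and 2.35 CPM to 11.7, 10.4 and 13.2 CPM (log2 2.44, SE 0.131, adjusted p = 7.54e-07, 5.46-fold). COL4A2 rose from 4.52, 5.13 and 5.03 CPM to 16.9, 15.4 and 16.6 CPM (log2 1.73, SE 0.094, adjusted p = 7.69e-07, 3.33-fold). In both the treated libraries lay well above the untreated ones, and the ratio per length of COL4A1 to COL4A2 went from 0.605, 0.519 and 0.614 to 0.91, 0.886 and 1.05. In MDA-MB-453 COL4A1 gave a single count in all 6 libraries and COL4A2 gave 2 to 8 counts per library, and neither was tested.

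In RefSeq COL4A2 starts at chr13:110307284, further in than the start of the span given above. Between this start site and that of COL4A1 lie 126 bases, so that with it a single short interval precedes both genes. Within the span given above the interval lies inside COL4A2. The 100 bases next to the COL4A1 start site, which overlap no annotated exon, are shown on the plus strand because these genes moved together, with a CCAAT box and an Sp1 box (GGGCGG) in capitals. The interval is chr13:110307158-110307257 and 78% of its bases are G or C.
COL4A1 and COL4A2: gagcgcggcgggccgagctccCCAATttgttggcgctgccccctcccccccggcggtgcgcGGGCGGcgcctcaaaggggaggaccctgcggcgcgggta

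The stretches of 150 bases before the annotated start of COL5A1 (chr9:134641653-134641802, plus strand), COL27A1 (chr9:114155387-114155536, plus strand) and COL16A1 (chr1:31704320-31704469, minus strand) are given for the gene with the highest fold change (COL27A1), a gene that rose in both lines (COL16A1) and the type V chain that rose while its partner fell (COL5A1). Each reads 5′ to 3′ along its gene in hg38, outside annotated exons, with Sp1 boxes on either strand in capitals. The COL5A1 stretch holds no such box.
COL5A1: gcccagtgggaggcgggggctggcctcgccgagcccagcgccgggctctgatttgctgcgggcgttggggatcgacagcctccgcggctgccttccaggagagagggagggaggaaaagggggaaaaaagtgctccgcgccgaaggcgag
COL27A1: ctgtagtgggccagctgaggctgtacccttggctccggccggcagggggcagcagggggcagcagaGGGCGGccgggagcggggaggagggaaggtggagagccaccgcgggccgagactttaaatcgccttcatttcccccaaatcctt
COL16A1: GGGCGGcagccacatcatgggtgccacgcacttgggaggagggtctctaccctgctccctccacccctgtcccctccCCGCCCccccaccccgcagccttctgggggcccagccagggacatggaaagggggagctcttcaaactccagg

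RefSeq promoter windows (GRCh38.p14, 250 bases before to 50 after the start) were at hand for 32 of the 44 collagen genes, among them 6 of the 7 that rose in SKBR3. The COL16A1 window (chr1:31703968-31704267) follows another start site and does not reach the stretch printed for that gene. An Sp1 box (GGGCGG, either strand) was present in a window of all 6, as in 45% of the 35116 windows in the table and in 21 of the 32 collagen genes. In the COL16A1 window the boxes lay at positions -200 and -171 from its own start and not at those printed in capitals. For COL5A1 they lay at -230 and -214 in 1 window and at -232 and -216 in another, outside the stretch printed for that gene. A CCAAT box (either strand) was present in the windows of COL4A1 and COL4A2, in 34.6% of all windows and in 12 of the 32 genes, and the copy in the COL4A1 and COL4A2 windows is the same 5 bases of the shared interval. None of the 6 held an AP-1 site (TGANTCA, which reads alike on both strands), an NF-κB consensus site or a TATA box (TATAAA, either strand), which 7.71%, 7.73% and 11.5% of all windows held. Matches of letters are a description of these windows only.

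Of the remaining type IV chains, COL4A5 was tested in both lines and COL4A6 in MDA-MB-453, without a call, and COL4A3 and COL4A4 were too low to be tested. COL4A5 and COL4A6 are also head to head and contribute to specialised basement membranes. COL4A5 was the second most abundant collagen per length in MDA-MB-453, at 108, 108 and 107 CPM without and 108, 113 and 112 CPM with TWEAK (log2 0.04, adjusted p = 0.718), and in SKBR3 it was at 11.5, 13 and 11.1 CPM and at 11.7, 9.49 and 11.6 CPM (adjusted p = 0.575). COL4A6 was above the floor of 3 counts in MDA-MB-453 only, at 6.46, 6.34 and 7.15 CPM and at 6.08, 7.5 and 7.11 CPM (adjusted p = 0.866), where SKBR3 had at most 2 counts in any library. The ratio per length of COL4A5 to COL4A6 was 12.7 ± 0.868 (SD, n = 3) in untreated and 12.7 ± 1.11 in treated MDA-MB-453. COL4A3 and COL4A4 stayed at or under 14 counts in every library.

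The transmembrane class and the 13 other collagens gave 1 call with TWEAK. COL15A1, a basement membrane zone collagen of the multiplexin type, lies at chr9:98943179-99070792 on the plus strand. It fell in SKBR3 from 4.85, 3.93 and 4 CPM to 2.99, 2.44 and 3.46 CPM (log2 -0.53, SE 0.159, adjusted p = 0.0738). The groups did not overlap, but the call was lost in DESeq2 (adjusted p = 0.158) and without untreated replicate 1 (0.304), 2 (0.14) or 3 (0.138) or TWEAK replicate 1 (0.158). COL18A1, the related multiplexin whose end fragment is endostatin, was among the most abundant collagens per length in SKBR3. It stood at 45.7, 48.6 and 54.5 CPM without and 43, 47 and 42.4 CPM with TWEAK, with overlapping groups (log2 -0.17, SE 0.082, adjusted p = 0.277, but 0.0301 without TWEAK replicate 2 and 0.0262 with GC content and length offsets), and 18.5% of its exonic bases lie opposite SLC19A1. COL6A1, a chain of the beaded filament collagen VI, stood in SKBR3 at 9.37, 10.4 and 11.9 CPM against 10.4, 11.7 and 10.2 CPM (adjusted p = 0.915). COL6A2 was at 0.934, 1.16 and 1.36 CPM against 1.33, 1.84 and 1.84 CPM (adjusted p = 0.205), and COL6A3, which completes the usual collagen VI molecule, had 3 to 7 counts in each SKBR3 library. COL7A1, the anchoring fibril collagen, was at 6.39, 3.9 and 4.51 CPM and 6.61, 5.85 and 7.63 CPM in MDA-MB-453, with no call over all libraries (log2 0.46, adjusted p = 0.284). It was called there without untreated replicate 1 (adjusted p = 0.0358) or TWEAK replicate 2 (0.0105) and with no filter on low counts (0.00266). COL17A1, the hemidesmosome collagen, was at 0.79, 0.331 and 0.371 CPM without and 0.97, 1.08 and 0.918 CPM with TWEAK in SKBR3, also with no call (adjusted p = 0.123). None of the 4 transmembrane genes had a mean of 1 CPM in any group, and COL13A1 was tested in SKBR3 without a call, while COL23A1 and COL25A1 had at most 8 counts in any library. COL26A1 and COL28A1 were likewise tested in SKBR3 without a call, and COL6A5, COL6A6, COL8A1, COL8A2 and COL10A1 had at most 6 counts in any library.

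The change with TWEAK itself differed between the lines for 5 of the 25 collagen genes tested for this interaction, 3 with a higher and 2 with a lower change in SKBR3, where 2.36% and 1.01% of all 17201 genes tested were called. COL16A1 rose in both lines and by 0.72 more on the log2 scale in SKBR3 (SE 0.142, adjusted p = 0.00751). COL5A2 fell in SKBR3 alone, with a difference of -1.60 (SE 0.182, adjusted p = 5.16e-05). Both calls held in every alternative setting and with any library left out. For COL5A1 the difference was 2.84 (SE 0.626, adjusted p = 0.0183) and for COL27A1 2.66 (SE 0.648, adjusted p = 0.0372), but each rested on at most 12 counts per library in MDA-MB-453. Both genes passed the filter on low counts through SKBR3 alone, so these values are not read as the size of a difference. With at least 10 counts in every library neither was tested, and 1 gene, COL16A1, was called higher (3.14% of all genes). The COL5A1 call was lost without untreated MDA-MB-453 replicate 1 (adjusted p = 0.172) and the COL27A1 call without untreated MDA-MB-453 replicate 1 (0.419) or 2 (0.2). For COL9A3 the difference was -1.0 (SE 0.287, adjusted p = 0.0906), lost without any library of 8 of the 12 (0.14 to 0.315). The 4 libraries whose removal kept the COL9A3 call were untreated replicate 3 and TWEAK replicate 2 of SKBR3 and untreated replicate 1 and TWEAK replicate 2 of MDA-MB-453.

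For the other genes that rose in SKBR3 the difference between the lines was not called. COL12A1 differed by 0.46 (SE 0.207, adjusted p = 0.405), although the call was made without SKBR3 TWEAK replicate 2 (log2 0.61, adjusted p = 0.002) and with no filter on low counts (log2 0.45, adjusted p = 0.0197). COL4A2 differed by 1.59 (SE 0.536, adjusted p = 0.18), with the call made in DESeq2 (adjusted p = 0.0917) and without untreated MDA-MB-453 replicate 2 (adjusted p = 0.0954). It had at most 8 counts per library in MDA-MB-453 and passed the filter on low counts through SKBR3 alone. The COL4A2 value is thus not read as the size of a difference. COL4A1 and COL14A1 had 3 counts or fewer in every MDA-MB-453 library, so a modest change there was not detectable at this depth, and their differences were not called (adjusted p = 0.503 and 0.869).

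Before treatment the lines expressed different collagens. All 21 collagen genes tested were called, 14 higher and 7 lower in untreated SKBR3 than in untreated MDA-MB-453, where 44.8% and 42.4% of all 16315 genes tested were called. COL6A1, COL15A1, COL4A1, COL6A2 and COL4A6 passed the filter on low counts through 1 line alone. The same held for COL5A1, COL4A2, COL24A1, COL27A1, COL28A1 and COL2A1. The calls of all these genes are not independent of the filter. With at least 10 counts in every library, 10 collagen genes were tested, 5 higher and 5 lower, beside 43% and 43.4% of all genes. Line and any other difference between the cultures cannot be told apart. COL5A1 was 350-fold higher in SKBR3 (log2 8.42, SE 0.134, adjusted p = 5.34e-27), and COL5A2 16.9-fold (log2 4.08, SE 0.099). The COL5A1 value rested on 6, 3 and 3 counts in untreated MDA-MB-453 and is not read as an exact size. COL6A1, COL15A1, COL4A1 and COL6A2 had at most 1 count per library in untreated MDA-MB-453 and were at least 95.7-fold, 38.6-fold, 19.5-fold and 10.4-fold higher in SKBR3, against the floor of 3 counts per library. COL16A1 was 4.16-fold higher in SKBR3 (adjusted p = 3.93e-17) and COL18A1 11.5-fold.

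The genes higher in untreated MDA-MB-453 were COL1A1, COL2A1, COL11A2, COL4A5, COL4A6, COL7A1 and COL9A3. COL4A6 stood there at 56.1-fold the floor of 3 counts per library, which its 2, 2 and 1 counts in untreated SKBR3 do not make a strict bound. COL4A5 was 9.07-fold higher there (log2 -3.18 in SKBR3, SE 0.057), COL1A1 6.26-fold and COL9A3 6.22-fold. The chains of collagen IX were unevenly spread, and the ratio per length of COL9A2 to COL9A3 was 13.9, 15.1 and 20.3 in untreated SKBR3 and 0.184, 0.0806 and 0.0946 in untreated MDA-MB-453. Per kilobase of exon the highest levels in untreated SKBR3 were those of COL5A2 (6.17 CPM), COL18A1 (5.86 CPM) and COL5A1 (4.63 CPM), and per kilobase of the longest transcript COL18A1 came first (7.53 CPM, against 6.61 and 6.12 CPM for COL5A2 and COL5A1). In treated SKBR3 they were those of COL5A1 (15.7 CPM), COL16A1 (9.02 CPM, from 1.79 CPM) and COL12A1 (5.43 CPM), followed by COL18A1 (5.22 CPM), in the same order with either length. In MDA-MB-453, in both groups and with either length, they were those of COL1A1 (13.3 CPM untreated and 12.3 CPM treated per kilobase of exon), COL4A5 (9.07 and 9.33 CPM) and COL9A3 (1.37 and 1.66 CPM). COL1A1 and COL4A5 made up 85.2% of the summed collagen CPM of untreated MDA-MB-453, whereas COL5A1, COL5A2, COL18A1 and COL12A1 made up 66.3% of that of untreated SKBR3.

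The machinery that folds, secretes and crosslinks collagen was described with a list of 38 genes, of which 31 were tested in SKBR3, with 3 higher and 1 lower after TWEAK, where 6.6% and 3.82% of all genes tested were higher and lower. LOXL2, a lysyl oxidase that crosslinks collagen and a known type IV collagen modifier, rose from 5.97 ± 0.296 to 9.74 ± 1.04 CPM (log2 0.70, adjusted p = 0.00188). BMP1, the protease that trims fibrillar procollagens at the C end, rose from 10.1 ± 1.02 to 14.1 ± 0.764 CPM (log2 0.48, adjusted p = 0.0104). P3H2, a prolyl 3-hydroxylase that acts on type IV collagen, rose from 0.479 ± 0.121 to 1.27 ± 0.2 CPM (log2 1.38, adjusted p = 0.00804). With 17, 9 and 11 untreated counts, P3H2 passed the filter on low counts only through its TWEAK group. TMEM38B, an endoplasmic reticulum potassium channel needed for collagen modification, fell from 33.5 ± 1.48 to 25.4 ± 2.02 CPM (log2 -0.40, adjusted p = 0.00787). The median of the list was 0.0062, beside -0.0074 over all genes tested. Without TWEAK replicate 2 the count of higher genes was 5, when 9.93% of all genes were higher. In MDA-MB-453 0 of the 26 genes tested were called higher or lower (1.29% and 0.208% of all genes tested), with 2 higher and 1 lower by an unadjusted p below 0.05, near the 5.95% and 4.57% of all genes. The interaction was called for BMP1 (log2 0.60, adjusted p = 0.0517) and for no other of 31 genes tested, beside 2.36% higher and 1.01% lower over all genes tested, and this count was 0 without untreated replicate 1 or 2 or TWEAK replicate 1 of SKBR3, or without untreated replicate 1 or 3 or TWEAK replicate 1 of MDA-MB-453.

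Of 28 genes for collagen receptors and degradation, 20 were tested in SKBR3, with 6 higher and 1 lower, beside the 6.6% and 3.82% of all genes tested. MMP9, the gelatinase that cleaves type IV and V collagen, rose from 3.59 ± 0.847 to 22.3 ± 1.41 CPM (log2 2.63, adjusted p = 5.11e-07). MMP13, an interstitial collagenase, rose from 2.82 ± 0.323 to 14 ± 2.52 CPM (log2 2.31, adjusted p = 3.29e-06). TIMP1, an inhibitor of these proteases, rose as well, from 5.81 ± 1.24 to 13.5 ± 1.69 CPM (log2 1.21, adjusted p = 0.000391). MMP2 and TIMP3 also rose, to means of 0.989 and 0.91 CPM, and GPC1, a glypican, rose by 0.28 (adjusted p = 0.0936). MMP2 (3, 5 and 7 untreated counts) and TIMP3 (7, 11 and 9) passed the filter on low counts only through their TWEAK group. Their calls, which are part of the count of 6, are thus not independent of the filter. SDC1, a syndecan that binds fibrillar collagen, fell by 0.20 on the log2 scale (adjusted p = 0.0855), and the count of lower genes was 1 without TWEAK replicate 2 and 0 without any other library. In MDA-MB-453 0 of 17 tested genes were called higher or lower (1.29% and 0.208% of all genes tested), with 1 higher and 2 lower by an unadjusted p below 0.05 (5.95% and 4.57% of all genes). Without TWEAK replicate 2, 1 was higher and 3 were lower, beside 6.59% and 7.22% of all genes. The interaction was called for MMP13 (log2 1.94, adjusted p = 0.000356), TIMP1 (log2 0.98, adjusted p = 0.00157) and TIMP3 (log2 1.35, adjusted p = 0.0794), 3 higher of 21 genes tested, beside 2.36% of all genes tested.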

How the data were processed

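RNA-seq counts per gene were deposited for the 12 libraries, 6 per line. The authors removed adaptors with Trimmomatic, aligned with STAR to hg38 and used featureCounts for the counts; versions, strand setting and annotation are not given in the sources used here. The labels and the study's methods name different library kits. Of 62696 gene identifiers, 61918 matched GENCODE v44 with their version, 707 without it, and 71 did not match. Counts were tested with edgeR 4.0.16 (filterByExpr, TMM, quasi-likelihood test, Benjamini-Hochberg adjustment over all genes tested, adjusted p of at most 0.1), in 6 libraries per comparison and 12 for the interaction. SE is the log2 fold change over the root of F. Levels are CPM with TMM factors over 12 libraries. Means are given ± SD over 3 libraries. The floor of 3 counts equals 0.0818 to 0.125 CPM and, like any interval on counts, covers counting error at most. DESeq2 1.42.0, 2 filters, size factors, a joint fit, GC content and length offsets, a replicate block and leaving out each library were tried. The script was tested on simulated data. The collagen genes, their classes and the lists were chosen with earlier results of these data known. Genes named are those called with TWEAK or in the interaction, the 3 highest per length in each line, COL16A1, COL5A1, COL5A2, and the 5 largest differences between lines with at least 1 CPM; chain partners and genes near the threshold were added after their values were seen. Sequences came from hg38 and RefSeq. R 4.3.3 and Python 3.11.15 were used.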

Additional observations from a re-analysis of the deposited data

Results flagged for a closer look

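The change with TWEAK differed between the lines by a test of the difference itself for 5 of 25 collagen genes, 3 higher and 2 lower, beside 2.36% and 1.01% of all genes tested. On the log2 scale, SKBR3 minus MDA-MB-453, it was 0.72 for COL16A1, 2.84 for COL5A1, 2.66 for COL27A1, -1.60 for COL5A2 and -1.0 for COL9A3. COL16A1 rose in both lines, COL5A2 fell in SKBR3 with no call in MDA-MB-453, COL9A3 passed the test in neither line, and COL5A1 and COL27A1 were too low in MDA-MB-453 to be tested there. COL5A1 and COL27A1 passed the filter on low counts through SKBR3 alone, so their values are not read as the size of a difference. With at least 10 counts in every library neither was tested, and 1 gene was higher and 2 were lower (3.14% and 1.52% of all genes). With 1 library left out, the COL9A3 call was lost in 8 of 12 refits, the COL27A1 call in 2 and the COL5A1 call in 1.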

How the results depend on the processing

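Of 582 refits of single genes, 530 kept direction and side of the threshold, 33 fell below it, 19 passed it and 0 changed sign. The count of collagen genes higher in untreated SKBR3 was 14 of 21 tested (44.8% of all genes), and 22 of 32 in DESeq2 (32.8%). It was 22 of 42 with no filter (26%) and 5 of 10 with at least 10 counts in every library (43%), where 5 were lower (43.4%). The filters change how many genes are tested, and DESeq2 differs in the test as well. Genes lower with TWEAK in SKBR3 numbered 3 (3.82% of all genes), and 1 in DESeq2 (2.54%) and 1 at an adjusted p of at most 0.05 (2.32%). They numbered 5 in a fit of all 12 libraries (6.21%) and 5 with GC content and length offsets (10.6%). With no filter on low counts the number stayed at 3 while the share fell to 2.45%, so the count did not always move with the share of all genes. The interaction gave 3 higher and 2 lower (2.36% and 1.01%), with 1 higher at 10 counts in every library (3.14%) and 1 lower at an adjusted p of at most 0.05 (0.552%). With the replicate block, SKBR3 gave 7 higher and 2 lower (5.26% and 2.47% of all genes), MDA-MB-453 3 higher and 1 lower (COL1A1, also with the offsets, 1), where the shares were 3.28% and 2.71%, and the interaction 1 lower (0.587%). In SKBR3 replicate numbers did not pair the libraries (r from -0.16 to 0.11 for the same number). In MDA-MB-453 r was 0.025 to 0.086 for the same number and -0.086 to 0.0043 for different numbers. Whether the numbers pair the libraries of that line was not tested, and the labels do not say so. The block is not read further. Where the cause of a shift is not named, it was not tested. Leaving out 1 library gave 6 to 8 higher and 1 to 6 lower in SKBR3 (4.27% to 9.93% and 1.49% to 7.45% of all genes), 2 to 4 higher and 0 to 1 lower in MDA-MB-453 (0.791% to 6.59% and 0.0659% to 7.22%), 14 to 16 higher between lines (43.8% to 44.4%), and 1 to 4 higher and 1 to 2 lower in the interaction (1.73% to 3.67% and 0.511% to 2.87%). The same shares of all genes stand beside the lists. For the synthesis list it gave 3 to 5 higher in SKBR3, 0 to 1 higher and 0 to 1 lower in MDA-MB-453 and 0 to 1 higher in the interaction. For the receptor and degradation list it gave 4 to 7 higher and 0 to 1 lower in SKBR3, 0 to 1 higher and 0 to 3 lower in MDA-MB-453, and 2 to 4 higher and 0 to 1 lower in the interaction. The offsets moved the median of all genes between untreated lines by -0.291 and the calls from 7311 higher and 6915 lower to 5778 and 8777. In all genes of SKBR3 they gave 1238 higher and 1655 lower in place of 1034 and 599, in MDA-MB-453 234 and 116 in place of 192 and 31, and in the interaction 489 and 513 in place of 406 and 173. With the longest transcript as length, COL1A1 was at 20.3 and COL4A5 at 16.5 CPM per kilobase in untreated MDA-MB-453. Counts of 3 or fewer limit what can be said of 27 collagen genes in MDA-MB-453 and 15 in SKBR3.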
